A study of Mus musculus with 8 samples.

Results

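In the mouse cortex, 3289 stretches of open chromatin carried an ATAC-seq peak in exactly 3 of the 4 libraries from animals with bilateral common carotid artery stenosis (BCAS) and in none of the 4 sham libraries. They were selected on that presence alone, out of 197916 regions obtained by merging the overlapping peaks of all 8 libraries, and are called 3-BCAS regions here. They made up 1.66% of all regions. BCAS mice received a microcoil of 0.16 mm on the right and of 0.18 mm on the left common carotid artery, which narrows both vessels and chronically lowers blood flow to the brain, while in sham mice the arteries were exposed and left without coils. All mice were male C57BL/6 operated on at 11 weeks of age, and cortex was taken 3 weeks later, with 1 library per mouse. The sample labels name the right cerebral cortex, whereas the study's quality table speaks of whole-brain cortex with olfactory bulb and cerebellum removed. Gene starts in this tissue carried peaks of all 8 libraries within 1 kb for 12 of 16 excitatory neuron genes, 12 of 16 astrocyte genes, 12 of 16 oligodendrocyte genes and 15 of 30 microglia genes, against 1 of 16 lymphocyte genes.

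ATAC-seq cuts and tags DNA wherever the Tn5 transposase can reach it, so a peak marks DNA that is not packed tightly in nucleosomes, such as active promoters and enhancers. Microglia are the resident macrophages of the brain, and their enhancers are opened by PU.1, an ETS family transcription factor that binds a purine-rich site around GGAA together with IRF, RUNX and C/EBP partners. In reduced blood flow, as in other injuries, microglia take up debris and change the genes they express. In bulk tissue, more cells of a type and more open chromatin per cell cannot be told apart.

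Short windows of 3-BCAS regions show the sequence that set these regions apart most, as described further on. They lie at genes of microglia and phagocytes, and also near Insig2 and Osgin1, which were named for the rank of their peaks. The capitals mark GAGGAAGT, the letters searched for PU.1. Each line gives 30 bases of GRCm38 (mm10), read 5′ to 3′ on the strand that carries the motif, and distances are those of the region's summit, the point of highest signal, from the nearest start of a protein-coding transcript.
Spp1, 87 bp upstream of the start, chr5:104434987-104435016, plus strand: caaaaccagagGAGGAAGTgtaggagcagg
Itgax, inside the gene, chr7:128133843-128133872, minus strand: agttgcttcaaGAGGAAGTtacaggaggaa
Itgam, first part of the gene, chr7:128067991-128068020, minus strand: caatcactgtgGAGGAAGTcttcagggccc
Tyrobp and Hcst, at the Hcst start, chr7:30419624-30419653, minus strand: agaggcacagaGAGGAAGTcggtctccctg
Lgals3, 577 bp past a transcript start inside the gene, chr14:47374605-47374634, plus strand: agatctgggtgGAGGAAGTcttgggtgtgg
Elmo1, intron, chr13:20220560-20220589, plus strand: ttttgattggaGAGGAAGTtgccataggtt
Insig2, 1891 bp upstream of the start, chr1:121334455-121334484, plus strand: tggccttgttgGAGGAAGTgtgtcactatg
Osgin1, upstream of the gene, chr8:119424960-119424989, plus strand: cagccacgaagGAGGAAGTgtgtgggggaa
In these windows the motif lay between 4 bp (Itgax) and 78 bp (Lgals3) from the summit. The windows were picked among named regions that hold the motif within 100 bp of the summit. Its presence in them is therefore no result, and most 3-BCAS regions lack it.

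The 300 bases around the summit are shown for the strongest 3-BCAS region of the whole set and for that at Lgals3, on the plus strand, with every GAGGAAGT or its reverse complement in capitals.
Insig2, chr1:121334330-121334629: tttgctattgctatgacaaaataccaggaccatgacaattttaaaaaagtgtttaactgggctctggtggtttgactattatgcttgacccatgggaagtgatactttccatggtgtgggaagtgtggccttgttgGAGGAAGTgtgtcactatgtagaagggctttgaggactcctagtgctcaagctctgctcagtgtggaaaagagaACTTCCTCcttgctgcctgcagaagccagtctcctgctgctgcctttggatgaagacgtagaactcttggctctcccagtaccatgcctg
Lgals3, chr14:47374391-47374690: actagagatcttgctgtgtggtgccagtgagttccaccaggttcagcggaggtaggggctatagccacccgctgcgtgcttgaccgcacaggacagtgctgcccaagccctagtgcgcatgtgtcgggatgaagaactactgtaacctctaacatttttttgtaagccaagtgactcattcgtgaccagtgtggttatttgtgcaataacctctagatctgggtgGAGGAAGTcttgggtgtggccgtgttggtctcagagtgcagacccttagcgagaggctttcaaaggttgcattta
The window upstream of Insig2 carries the motif on both strands, and 72.1% of this region is masked as repeat sequence in the reference, against a median of 8.44% over the 3-BCAS regions. The Lgals3 window carries the motif 78 bp from the summit, and the same region also matched the RUNX, C/EBP and AP-1 motifs.

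The values in the deposited lists were made within each library, so peaks were compared by their percentile of −log10 q within their own list, from 0 for the weakest to 100 for the strongest. The lists hold no read counts, and the depth behind a peak is unknown. They held 119565 to 160720 peaks in the BCAS libraries and 107391 to 144988 in the sham libraries, and BCAS 1 had the most. All shares below are descriptions with Wilson 95% intervals, which cover counting error only, and no test was run on them, since regions of the same libraries are not replicates and the presence of peaks chose the set.

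The neighboring presence patterns place the rule. A further 6431 regions had peaks in 2 BCAS and no sham libraries, 20413 in 1 BCAS and no sham library, and 2877 in 3 BCAS and 1 sham libraries. Regions with peaks in all 4 BCAS and no sham libraries (4-BCAS regions) numbered 3206 (1.62% of regions). In the opposite direction, 985 regions had peaks in 3 sham and no BCAS libraries (3-sham regions, 0.498%) and 187 in 4 sham and no BCAS libraries. Regions called in 3 libraries drawn from both groups (mixed regions) numbered 10865 (5.49%). The step to 4 libraries thus hardly lowered the number in the BCAS group, but lowered it steeply in the sham group. Sham 1 and sham 4 had the shortest lists of all (107391 and 112260 peaks). The sham patterns were not recounted with lists of equal length, so the part of list length in this contrast was not tested. Leaving out a sham library gave 3497 to 4730 regions that met the BCAS rule. Leaving out BCAS 2, 3 or 4, so that the rule asked for 2 of 3 BCAS libraries, gave 6270, 5754 and 6446, and leaving out BCAS 1 gave 4346.

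Peaks shared by exactly 3 libraries were not particular to the BCAS group. There are 56 sets of 3 libraries, and the commonest was BCAS 1 with sham 2 and sham 3, which have the longest lists and alone shared 1859 regions. The set of BCAS 1, 2 and 3 came next with 1394 regions. The 4 sets of BCAS libraries held 164 to 1394 regions, the 4 sets of sham libraries 50 to 443, and the 48 mixed sets 10 to 1859.

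The library without a peak was unevenly spread. BCAS 4 lacked the peak in 1394 of the 3-BCAS regions (42.4%; 40.7 to 44.1%), BCAS 2 in 972 (29.6%), BCAS 3 in 759 (23.1%) and BCAS 1 in 164 (4.99%; 4.29 to 5.78%). BCAS 4 had the shortest list and BCAS 1 the longest. With every list trimmed to its strongest 107391 peaks, 2421 regions met the rule, and BCAS 1, 2, 3 and 4 lacked 24.3%, 28.2%, 18.4% and 29.1% of them. Trimming thus moved the shares of BCAS 1, 3 and 4 out of their intervals, but not that of BCAS 2, and the number of regions stayed within 1.5-fold. The order did not follow list length throughout. BCAS 2 had a longer full list than BCAS 3 (127979 and 123331 peaks) but lacked more of the regions.

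**Figure D1:**
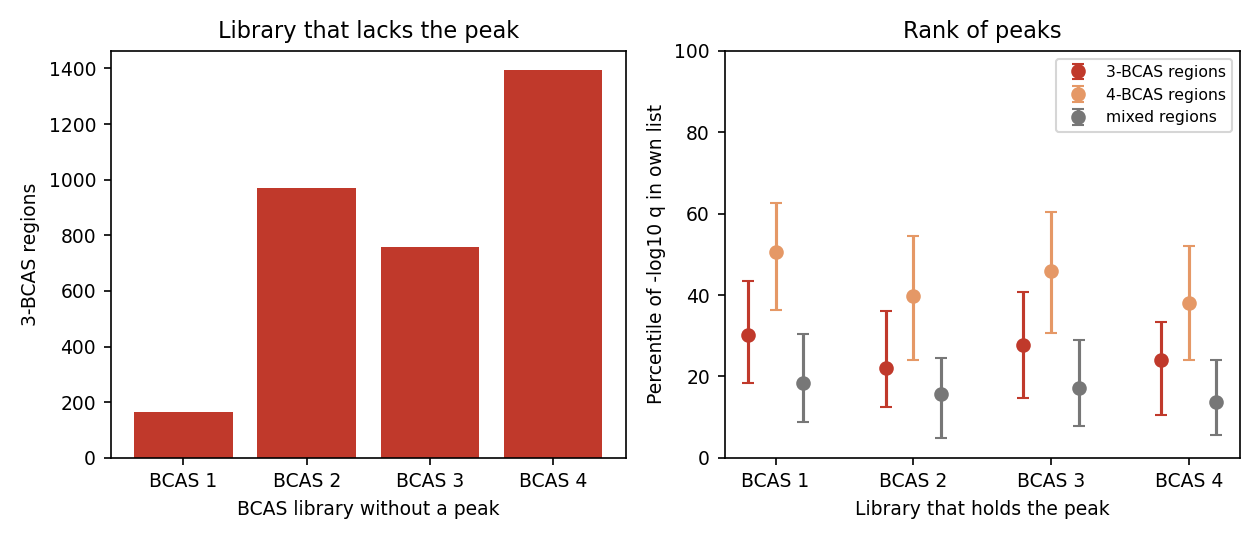
Left, number of 3-BCAS regions by the BCAS library that lacks a peak, from 164 for BCAS 1 to 1394 for BCAS 4. Right, percentile of −log10 q within the library's own list (median as a point, quartiles as bars) for peaks of 3-BCAS, 4-BCAS and mixed regions, in which 3-BCAS peaks lie between the other kinds in every BCAS library.

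Peaks of the 3-BCAS regions were of low to middling rank. Their median percentile was 30.2 in BCAS 1, 22.1 in BCAS 2, 27.6 in BCAS 3 and 24.0 in BCAS 4. Peaks of 4-BCAS regions stood higher in all 4 libraries, at 50.7, 39.9, 45.9 and 38.1, and peaks of mixed regions lower, at 18.3, 15.6, 17.2 and 13.7. Within a region, the median of the weakest of the 3 peaks was 15.3 and that of the strongest 39.9. All 3 peaks were below the middle of their lists in 2517 regions (76.5%) and all above it in 26 (0.79%). All 3 reached −log10 q of 5 in 1602 regions (48.7%), and in 44 the weakest peak was under 2. Median fold enrichment over the local background was 4.79, 4.41, 4.63 and 4.57 in BCAS 1 to 4. At the weak end of the rule, the region nearest Golph3 entered on a BCAS 4 peak with −log10 q of 1.44, at percentile 0.00753.

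Few of the absent peaks had an unmerged peak right beside the region. The missing BCAS library had another peak within 100 bp in 11 of the 3289 regions and within 1 kb in 624 (19.0%). In sham libraries the shares within 1 kb were 13.2%, 16.1%, 18.2% and 14.0% in sham 1 to 4. By the missing library, the share within 1 kb was 27.4% of its own regions for BCAS 1, 20.3% for BCAS 2, 17% for BCAS 3 and 18.1% for BCAS 4, so that the ranges of the groups overlap. Where 3 libraries had a peak, their summits were close. The summits lay within 50 bp of each other in 53.6% of 3-BCAS regions (51.9 to 55.3%), against 41.4% of 3-sham regions and 41.6% of mixed regions, with median spreads of 47, 59 and 60 bp.

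Most 3-BCAS regions were outside promoters. Introns held 47.8% of them (1572), distal intergenic DNA 30.4% (1000), and promoters, taken as 3 kb around a transcript start, 17.6% (579; 16.3 to 18.9%). The promoter share was 19.2% in 4-BCAS regions, 12.1% in 3-sham regions, 12.9% in mixed regions and 19.3% in all regions. The median distance of the summit to a protein-coding start was 26.1 kb, against 23.7 kb in 4-BCAS, 41.7 kb in 3-sham, 46.9 kb in mixed and 36.4 kb in all regions. Intron shares were 45.8%, 53.1% and 49.8% in 4-BCAS, 3-sham and mixed regions, and distal intergenic shares 31.4%, 31.0% and 33.7%. In promoter share and distance to a start, the 3-BCAS regions thus resembled 4-BCAS regions more than the other sets called in 3 libraries. In intron and distal intergenic shares they did not. Their GC content had medians of 49.3% in 3-BCAS, 49.3% in 4-BCAS, 45.1% in 3-sham, 46.2% in mixed and 47.7% in all regions. The median length of 3-BCAS regions was 313 bp, like that of 3-sham (317 bp) and mixed regions (316 bp). It was 360 bp in 4-BCAS and 386 bp in all regions.

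The 3-BCAS regions also lay near 4-BCAS regions. A 4-BCAS region was within 10 kb of 323 of them (9.82%; 8.85 to 10.9%), against 3.35% of 3-sham, 3.34% of mixed and 4.29% of all regions. Another 3-BCAS region was within 10 kb of 7.18% of them, and a 3-sham region within 10 kb of 1.40%, against 4.29% and 1.26% of all regions. Across chromosomes there were 12.9 (chromosome 3) to 23.4 (chromosome 7) 3-BCAS regions per 1000 regions, and 0 of 77 regions on chromosome Y, which allows a share of up to 3.90%.

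Of the 17 motifs searched, that of PU.1 had the highest ratio of its share in 3-BCAS regions to that in all regions (3.53). GAGGAAGT occurred on either strand within 100 bp of the summit in 338 of the 3289 regions (10.3%; 9.29 to 11.4%). It occurred in 15.2% of 4-BCAS regions (14.0 to 16.5%), 1.62% of 3-sham regions (1.002 to 2.62%), 1.84% of mixed regions and 2.91% of all regions. The share was 3.77%, 6.75%, 10.3% and 15.2% in regions with peaks in 1, 2, 3 and 4 BCAS and no sham libraries. In regions with peaks in 1, 2, 3 and 4 sham and no BCAS libraries it was 1.45%, 1.65%, 1.62% and 1.07%. The share thus climbed with the number of BCAS libraries and stayed flat with the number of sham libraries. Regions with peaks in 3 BCAS and 1 sham libraries, the nearest to the rule on the sham side, carried the motif in 3.55%, and those with 3 BCAS and 2, 3 and 4 sham libraries in 1.88%, 1.74% and 1.94%.

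**Figure D2:**
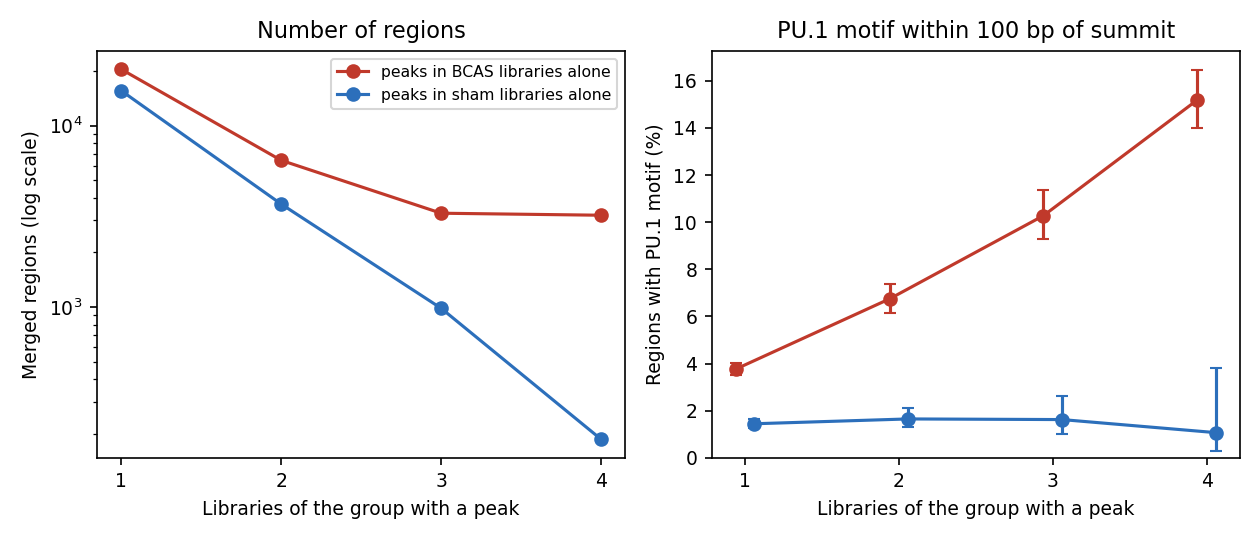
Number of regions (left, log scale) and share with the PU.1 motif (right, Wilson 95% intervals) by the number of libraries of the group with a peak, for regions with peaks in BCAS libraries alone and in sham libraries alone. At 3 libraries the motif share is 10.3% in BCAS-only and 1.62% in sham-only regions.

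Each 3-BCAS region is counted in 3 of the 4 BCAS libraries, so the motif shares of their peaks by library rest on largely the same regions. Around each library's own summits, the share was 10.2% in BCAS 1, 9.75% in BCAS 2, 10.2% in BCAS 3 and 10.3% in BCAS 4. Among all peaks of the same libraries it was 3.08%, 2.99%, 3.12% and 3.10%, and among all peaks of sham 1 to 4 it was 1.91%, 2.03%, 2.09% and 2.32%. Peaks of 3-BCAS regions therefore held the motif 3.25 to 3.33 times as often as all peaks of their library. Sorted by the missing library, the share was 9.76%, 10.5%, 10.9% and 9.83% for regions without a peak in BCAS 1, 2, 3 and 4. No library stood apart.

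By the percentile of the weakest peak, the motif share was 7.504% from 0 to 10, 11.1% from 10 to 25 and 13.5% from 25 to 50. Only 26 regions stood higher, and 2 of them had the motif. Within 10 kb of a 4-BCAS region the share was 14.6% (47 of 323), and farther away 9.81% (291 of 2966), with intervals of 11.1 to 18.8% and 8.79 to 10.9%. By place it was 10.9% in promoters, 9.16% in introns, 11.8% in distal intergenic regions and 5.88% in exons (4 of 68, 2.31 to 14.2%), against 2.96%, 2.94%, 2.79% and 3.47% of all regions in these places. By GC content it was 9.24% at 30 to 40% GC, 10.7% at 40 to 50%, 10.3% at 50 to 60% and 6.25% at 60 to 70% (8 of 128, 3.20 to 11.9%), against 1.44%, 3.01%, 3.63% and 1.77% of all regions in these classes. The share was above that of all regions in each of these classes, and in exons by less than its interval.

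The motif was most frequent near the summits. In bins of 25 bp, the share was 2.22% just before the summit and 1.82% just after it, and 0.182% at 225 to 250 bp before it. This rise was not particular to the 3-BCAS regions. The same bins held 2.90%, 3.68% and 0.125% in 4-BCAS regions, and 0.501%, 0.516% and 0.130% in all regions.

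**Figure D3:**
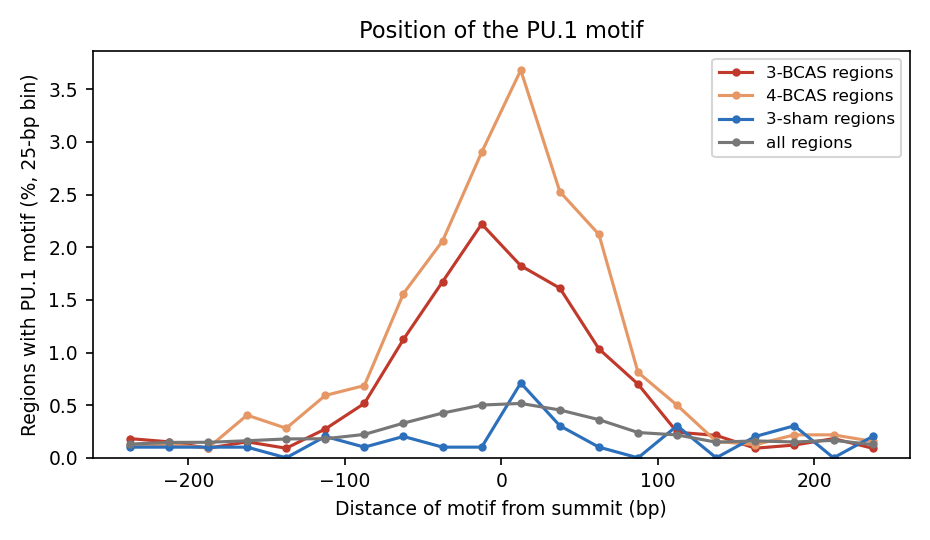
Share of regions with the PU.1 motif in bins of 25 bp around the summit, from 250 bp before to 250 bp after it, for 3-BCAS, 4-BCAS, 3-sham and all regions. In 3-BCAS regions it peaks at 2.22% next to the summit and is 0.182% at the left edge.

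Of the other motifs, those of PU.1 partners were also frequent. The composite PU.1-IRF motif GGAANNGAA, whose first letters overlap the PU.1 motif, occurred in 11.2% of 3-BCAS regions, 15.3% of 4-BCAS, 6.19% of 3-sham and 6.82% of all regions. The RUNX motif AACCACA occurred in 6.87%, 8.11%, 3.45% and 4.49% of these sets. The MAF motif TGCTGAC, for a factor family of macrophages, occurred in 6.39%, 8.45%, 3.96% and 4.69%. In all 3 motifs, the 3-BCAS regions stood above all regions and below 4-BCAS regions. The C/EBP motif TTGCNNAA occurred in 12.01% of 3-BCAS, 14.9% of 4-BCAS, 12.3% of 3-sham and 9.77% of all regions. For the IRF motif GAAANNGAA the shares were 8.36%, 10.85%, 7.61% and 6.59%. Both thus also stood above all regions and below 4-BCAS regions, but differed from 3-sham regions by less than their intervals.

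The AP-1 and NEUROD motifs were less frequent in 3-BCAS than in 3-sham and all regions. The AP-1 motif TGANTCA, bound by Fos and Jun proteins, occurred in 10.5% of 3-BCAS regions (9.49 to 11.6%), 11.1% of 4-BCAS, 22.5% of 3-sham (20.04 to 25.3%) and 15.02% of all regions. The cell type behind this motif was not tested. The NEUROD motif CAGATGG, for proneural factors, occurred in 5.75% of 3-BCAS, 5.43% of 4-BCAS, 8.73% of 3-sham and 9.24% of all regions.

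**Figure D4:**
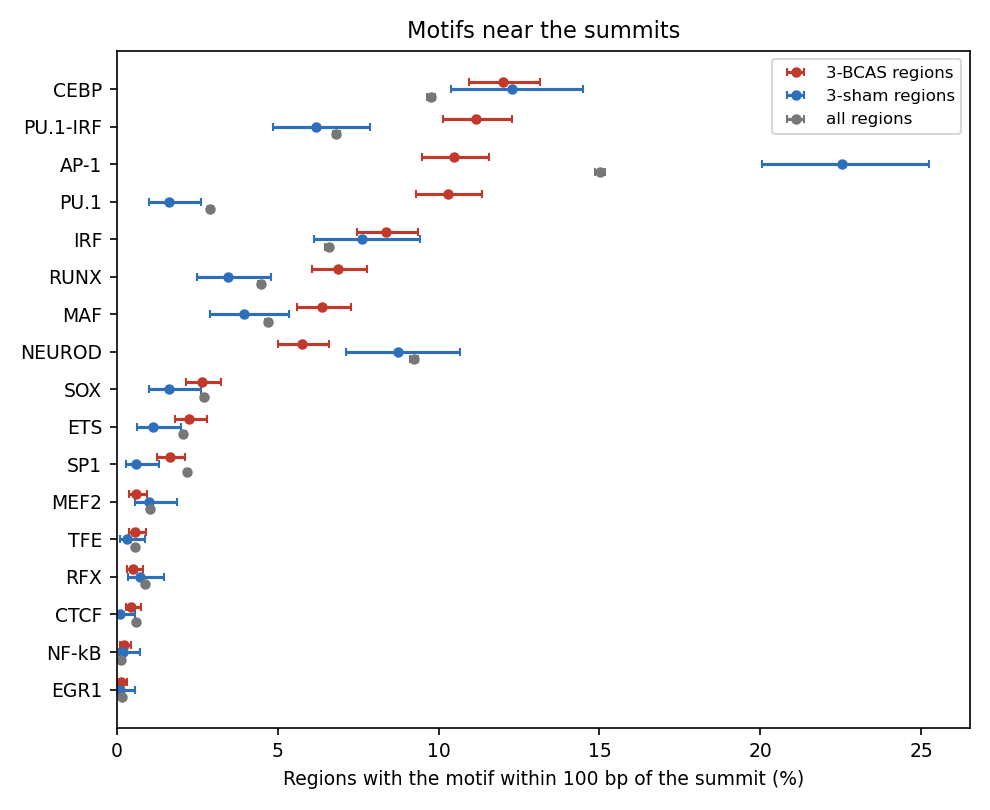
Share of 3-BCAS, 3-sham and all regions with each of 17 motifs within 100 bp of the summit, with Wilson 95% intervals. PU.1 separates 3-BCAS (10.3%) from 3-sham regions (1.62%), and AP-1 separates them in the opposite direction (10.5% and 22.5%).

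A search that named no factor gave the same leading letters. Of 5803 words of 8 letters present in at least 1% of the 3-BCAS regions, GAGGAAGT had the highest ratio to the other regions (3.69, from 10.3% and 2.79%). GGGGAAGT (5.02% and 1.41%), AAGAGGAA (10.1% and 3.13%), GGAAGTGA (7.15% and 2.28%), AAGGGGAA (4.87% and 1.56%) and AGGAAGTA (4.99% and 1.60%) were also among the top 10 and hold GGAA, as it does. The purine-only AAAGAGGA (6.54% and 2.20%) does not. The remaining 3, AAGGTCAA (1.003% and 0.28%), TGAGGTCA (2.86% and 0.879%) and GAGGTCAT (1.37% and 0.424%), hold GGTCA, the letters that nuclear receptors read.

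Microglia and phagocyte genes held 3-BCAS regions more densely than genes at large, but so did most of the other lists, given below. A gene locus was the gene with 3 kb on each side, and 1862 of 21938 protein-coding genes (8.49%) had a 3-BCAS region at the locus, or 16.8 per 1000 regions at all loci. Since long genes hold more regions, lists were compared by regions per 1000. The density was 43.9 at 30 microglia genes, 61.6 at 23 genes of disease-associated microglia, 41.5 at 38 phagocytosis genes, 66.7 at 17 antigen presentation genes and 52.1 at 24 genes of NF-kB and the inflammasome. The counts behind these are 9, 9, 20, 5 and 5 regions, and some genes stand in more than 1 list. For 3-sham regions the density was 4.89 at all loci, and 0, 13.7, 2.07, 13.3 and 0 at the same lists, on 0 to 2 regions each. The 33 interferon-stimulated genes had 2 regions (19.8 per 1000).

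Other cell types also had 3-BCAS regions. The density was 47.1 at reactive astrocyte genes, 40.3 at endothelial genes, 38.5 at lymphocyte genes, 32.6 at activity-regulated genes, 30.3 at oligodendrocyte genes, 26.3 at mural cell and fibroblast genes, 25.9 at inhibitory and 24.1 at excitatory neuron genes, 10.4 at astrocyte genes and 8.93 at genes of oligodendrocyte precursors, on 2 to 7 regions per list. Border macrophage and monocyte genes had 0 of 38 regions and housekeeping genes 0 of 44, which allow shares of up to 7.89% and 6.82%. Such small counts do not order these lists, either among themselves or against the microglia and phagocyte lists.

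**Figure D5:**
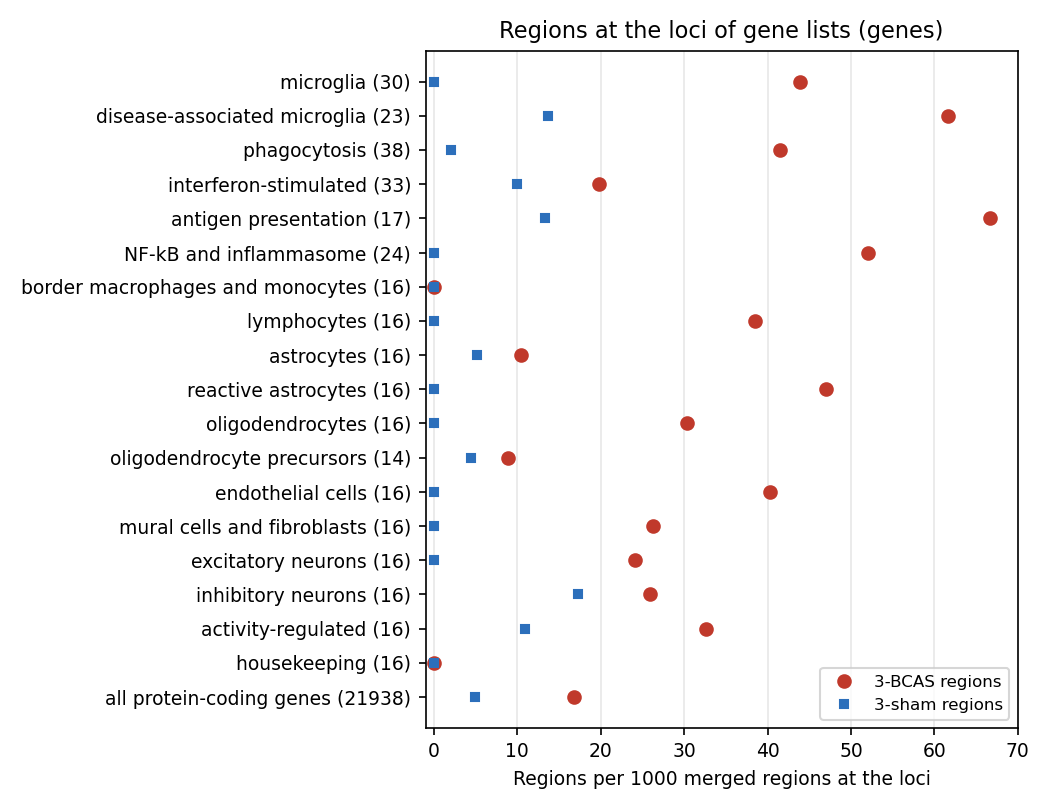
Number of 3-BCAS regions and of 3-sham regions per 1000 merged regions at the loci of 18 gene lists and of all protein-coding genes, with the number of genes in brackets. The value for all genes is 16.8 for 3-BCAS regions, and that for disease-associated microglia 61.6.

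Among microglia genes, 7 of 30 held a 3-BCAS region, and 4-BCAS regions lay at 10 of 30. Over all 21938 protein-coding genes the shares were 8.49% for 3-BCAS regions and 7.70% for 4-BCAS regions. At the start of P2ry12, the ADP receptor of resting microglia, a region with its summit 15 bp upstream (chr3:59262773-59263083) was absent from BCAS 2. Its fold enrichment was 4.13, 3.92 and 3.23 in BCAS 1, 3 and 4, at percentiles 45.2, 39.0 and 19.6, and a 4-BCAS region lay 0.959 kb away. At Csf1r, the receptor that microglia need to survive, the summit was 11 bp past a transcript start inside the gene and the percentiles were 41.7, 11.5 and 10.2 in BCAS 1, 2 and 3. These are core identity genes, and the peaks at both starts were weak in at least 1 carrying library.

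Itgam, which encodes the CD11b chain of complement receptor 3, held 3 of the set among 6 regions at its locus, beside 1 of the 4-BCAS regions. The strongest (chr7:128067903-128068233) carried the PU.1 motif shown above and had fold enrichments of 5.59, 5.77 and 4.63 in BCAS 1, 2 and 3. Itgam overlaps the predicted gene Gm49368, so its regions belong to both. The region at Tyrobp, the adaptor of TREM2 and other receptors, lay at the start of Hcst, its neighbor that encodes a related adaptor. It was absent from BCAS 2 and had percentiles of 47.5, 34.8 and 20.1 in BCAS 1, 3 and 4. Runx1, a blood-lineage transcription factor, had an intronic region at percentiles 65.95, 38.4 and 38.2 in BCAS 1, 2 and 3, and its locus also held 4 of the 4-BCAS regions. Ikzf1, a regulator of leukocyte development, had an intronic region absent from BCAS 2, at percentiles 20.4, 34.2 and 52.1 in BCAS 1, 3 and 4. That of Tmem119, a marker of resting microglia, was among the weakest of all, with a percentile of 1.66 in BCAS 1, and lay past the end of the gene.

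Of disease-associated microglia genes, 6 of 23 held a 3-BCAS region (26.1%, against 8.49% of all protein-coding genes). Both regions at the locus of the chemokine gene Ccl6 belonged to the set. The stronger lay 2867 bp upstream and had fold enrichments of 5.86, 6.45 and 6.33 in BCAS 1, 2 and 4. At Spp1, the gene of osteopontin, the region at the start had 8.79 in BCAS 1, 4.41 in BCAS 2 and 5.25 in BCAS 3, at percentiles 66.9, 15.6 and 30.7, and matched the PU.1, IRF and RUNX motifs. By percentile, BCAS 1 stood well above the other carriers there. At Lgals3, the gene of galectin-3, the percentiles were 56.6, 53.3 and 34.9 in BCAS 1, 3 and 4. Itgax, the CD11c gene, had 43.3, 34.5 and 10.3 in BCAS 1, 2 and 3. At Cd9, a tetraspanin gene, the percentile was 6.80 in BCAS 1 and 34.0 in BCAS 3, the reverse of the order at Spp1. The strongest of 3 regions counted for Ctsd, the gene of a lysosomal protease, lay at the start of the adjacent Ifitm10.

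Of phagocytosis genes, 15 of 38 held a 3-BCAS region (39.5%, against 8.49% of all protein-coding genes). These genes are long (median 39.0 kb, against 17.4 kb for all genes). Elmo1, which helps switch on Rac during engulfment, had 2 regions, of which the stronger carried the PU.1 motif and had fold enrichments of 6.51, 5.77 and 5.95 in BCAS 1, 2 and 4. Msr1, a scavenger receptor, had 5.59, 6.79 and 7.01 in BCAS 1, 2 and 3, and Tlr4, the receptor of bacterial endotoxin, 6.12, 5.43 and 5.28 in BCAS 1, 2 and 4. All of these peaks lay above percentile 30. Gas6, a bridge between dying cells and the TAM receptors of phagocytes, had a region 2105 bp inside the gene at percentiles 62.2, 31.1 and 64.0 in BCAS 1, 2 and 3. Single intronic regions lay in Lyn, a Src family kinase, Inpp5d, the phosphatase SHIP1, and Vav1, a Rac activator of blood cells, and 2 lay in Pik3r5, a regulatory subunit of PI3-kinase gamma. The motif was found in the strongest region of Elmo1 alone among these 8 genes.

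Of interferon-stimulated genes, 2 of 33 had a 3-BCAS region (6.06%), near the 8.49% of all protein-coding genes. That of Oas2, a sensor of double-stranded RNA, lay 64 bp upstream of its start, matched the IRF motif and had fold enrichments of 4.26, 4.75 and 5.25 in BCAS 1, 2 and 3. That of Usp18, which removes ISG15 from proteins, lay in an exon and was absent from BCAS 2. The 4-BCAS regions lay at 7 of the 33 genes (21.2%), Usp18 among them, against 7.70% of all protein-coding genes.

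The strongest 3-BCAS regions, ordered by the weakest of their 3 peaks, were mostly not at these genes. First came the region 1891 bp upstream of Insig2, which encodes a protein that holds back the maturation of SREBP sterol regulators. Its fold enrichment was 8.25 in BCAS 1, 10.5 in BCAS 2 and 9.15 in BCAS 4, at percentiles 63.3, 77.9 and 71.4, while the nearest BCAS 3 peak was 5.88 kb away. How reads mapped to its repeat sequence was not tested. Next were an exon of no protein-coding gene 26737 bp from Fcho1 (percentiles 62.3, 61.9 and 70.8 in BCAS 1, 2 and 3), with a 4-BCAS region 0.547 kb away, and the start of a transcript of Rassf5 (61.0, 62.7 and 67.2), a Ras effector of lymphocytes. Distal DNA 56701 bp from Ptcd2, an intron of Pdgfc, a platelet-derived growth factor gene, and an intron of Atg5, an autophagy gene, followed.

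The region 149 bp upstream of Glipr1 was absent from BCAS 2 and had percentiles of 63.3, 67.9 and 58.2 in BCAS 1, 3 and 4. Of the 4 regions at the Glipr1 locus, 3 belonged to the set. The other strongest regions lay in Dusp3 near Sost, in Emilin2, where a 4-BCAS region was 0.162 kb away, in F830045P16Rik, in Adarb1 with Pofut2 as the nearest start, and 5522 bp upstream of Crebl2. Among these 12, the PU.1 motif was found at Insig2 alone. Of the few regions without a BCAS 1 peak, the strongest lay in Ets1, which encodes an ETS factor of lymphocytes and endothelium, at percentiles 56.7, 54.1 and 49.0 in BCAS 2, 3 and 4. The next, upstream of Osgin1, had 45.6, 47.4 and 56.2 and carried the PU.1 and MAF motifs.

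Genes with the most 3-BCAS regions were long, and they were picked by that count. Over all protein-coding loci, 16.8 per 1000 regions were 3-BCAS regions. Hdac9, a class II histone deacetylase gene, held 7 of 91 regions at its locus, of which 2 carried the PU.1 motif, beside 1 of the 4-BCAS and 1 of the 3-sham regions. Etv6, an ETS repressor of blood cells, held 6 of 60, beside 4 of the 4-BCAS and 1 of the 3-sham regions, and 4 of its 6 stood below percentile 5 in at least 1 library. Lpp, a focal adhesion protein gene, held 6 of 71, of which 5 matched AP-1. Cux1, a homeobox gene of upper-layer neurons, held 5 of 56, Hivep3, a zinc finger gene, 5 of 90, Trak1, an adaptor of mitochondrial transport, 4 of 47, and Rptor, the mTORC1 scaffold, 4 of 50. The 5 counted for Fgfr2, among 327 regions, arise from an annotated locus that spans other genes, and 3 of them lie in Chst15 or Lhpp. These 8 genes exclude the predicted Gm20388, a long locus with 12 of 736 regions. At Fgfr2 and Gm20388 the share was close to that over all loci. At the other genes it ran from 5.56% (Hivep3) to 10% (Etv6).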

How the data were processed

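The authors trimmed paired ATAC-seq reads (Trim Galore), mapped them to mm10 (Bowtie2 2.3.4.3), sorted the alignments without duplicates (SAMtools 1.9) and ran MACS2 on each library. MACS2 options and Tn5 offset handling were not given in the sources used here. For each peak the deposited lists give a score, a fold enrichment (ratio to the local background), −log10 of the p-value and of the q-value, and the summit position within the peak. The score and −log10 p were not used further. The authors made these values within each library, so presence of a peak and percentiles of −log10 q were compared here. Read depth behind a peak is unknown.

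Analyses used Python 3.11.15, numpy 2.4.6, pandas 2.3.3 and matplotlib 3.10.9. Peaks on chromosomes 1 to 19, X and Y (1028949, with 861 on other sequences left out) were merged where they overlapped by 1 bp or more. Midpoints were assigned to GENCODE vM21 basic genes on GRCm38.p6 in the order promoter (3 kb), UTR, exon, intron, 300 bp downstream and distal intergenic. Around the summit of the strongest peak of a region, 100 bp on each side were searched for 17 motifs, on either strand. Groups came from the sample titles. The regions and the gene lists were chosen with earlier results of these data known. The groups were not tested against each other, and the only test was Dixon's, for libraries that stand apart within a group.

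Named genes were the 12 regions with the highest weakest percentile, the 2 highest for each missing library, the 8 genes with the most regions (predicted genes and chromosome 18 left out), and up to 8 genes of each of 4 lists. Procedures were tested on simulated peak lists. Alternatives were a −log10 q of at least 5, lists of equal length, peaks over at least 50% of a region, merged windows of 100 bp around summits, leaving out each library, promoters of 1 kb, a motif window of 50 bp, windows around region middles, and a distance of 50 kb.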

Additional observations from a re-analysis of the deposited data

Results flagged for a closer look

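The DNA covered by peaks was 66.3 Mb in BCAS 1, against 51.8, 50.8 and 48.9 Mb in BCAS 2, 3 and 4, and its gap to the nearest library was 0.833 of the range of the group, past Dixon's 95% critical value for 4 libraries. Chance flags about 1 in 20 such groups, and this was the only 1 of 14 values screened that passed (the number of peaks per BCAS library, at 0.796, did not). BCAS 1 also carried 95.01% of the 3-BCAS regions, and with lists of equal length 2421 regions met the rule, of which 24.3% lacked a BCAS 1 peak.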

How the results depend on the processing

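The number of 3-BCAS regions stayed within 1.5 times 3289 under each alternative of threshold, list length, overlap and merging (2421 to 3781). Without each library in turn, it ranged from 3497 to 6446, and passed 1.5 times without BCAS 2 (6270), BCAS 3 (5754) and BCAS 4 (6446), where the rule becomes 2 of 3 BCAS libraries. The leave-one-out ranges were 16.4 to 17.6% for promoters and 7.63 to 9.997% for the PU.1 motif. The motif share was thus below the main 10.3% whichever library was left out. It fell outside the main interval (9.29 to 11.4%) without BCAS 2, 3 or 4 and without sham 2 or 3. The range was 9.18 to 11.6% within 10 kb of a region with peaks in all remaining BCAS and no remaining sham libraries. Those target regions were redefined for each library left out and are not the 4-BCAS regions. For regions without a peak in BCAS 1, 2, 3 and 4 the ranges were 4.78 to 11.1%, 28.7 to 51.5%, 22.8 to 37.4% and 41.9 to 59.6%. The missing library moved with a −log10 q of at least 5 (3.89% for BCAS 1, 33.5% for BCAS 2, 20.7% for BCAS 3), with lists of equal length (24.3% for BCAS 1, 18.4% for BCAS 3, 29.1% for BCAS 4) and with merged summit windows (7.20% for BCAS 1). By construction, the promoter share was 8.00% with promoters of 1 kb, the motif share 6.90% within 50 bp, and the share near 4-BCAS regions 29.9% within 50 kb. Of 79 named regions, 46 met the rule with lists of equal length and 39 without BCAS 4. No paired analysis was possible because no result comes from a test, and replicate numbers are not said to pair mice.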
